A study of Homo sapiens with 18 samples.

Results

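The lysosome is the acidic compartment in which monocytes and macrophages break down what they take up, and 44 genes of its machinery are described here, all 44 of them present among the 19784 genes of the deposited tables. They were taken by gene name and grouped by role: 9 cathepsins and legumain, 18 glycosidases, sulfatases and other hydrolases with their helper proteins, 3 genes for lipid breakdown and cholesterol export, 6 membrane proteins and channels, the 2 transcription factors TFEB and TFE3, and 6 parts of the proton pump. The 18 poly(A)-selected libraries came from THP-1 cells, a human line of monocytic acute myeloid leukaemia that carries the MLL-AF9 fusion, grown in DMEM with fetal bovine serum. The first experiment held the line as it is (wt), a derivative with PHF8 and a derivative with F279S (n = 4 libraries each), with no treatment named. The second, on day 3, held 3 further derivatives with 2 libraries each, named ERAA, ERDD and ERPHF8, whose genotypes are labelled PHF8AA, PHF8DD and PHF8. The labels give 4-hydroxytamoxifen (4-OHT, 100 nM), a ligand of the estrogen receptor, for ERAA and ERDD and name no treatment for ERPHF8, so in every comparison with ERPHF8 the form of PHF8 and the 4-OHT label cannot be told apart. PHF8 is a histone demethylase, and F279S is known as a form of it without catalytic activity. How the genes were delivered, and whether a derivative is 1 clone or a pool, is not stated in those labels.

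Lysosomal enzymes are made in the endoplasmic reticulum, tagged with mannose 6-phosphate and carried by receptors to the lysosome. There the vacuolar ATPase (V-ATPase), a rotary proton pump with a membrane sector and a cytosolic sector, keeps the lumen acid so that they can work. Cathepsins cut proteins, glycosidases and sulfatases take glycans and sulfated sugars apart, and the loss of many of these enzymes causes a lysosomal storage disease. Many of their genes carry a palindromic CACGTG box near the start of transcription, to which TFEB and TFE3 bind when nutrients are short.

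That box was looked for in 300 bases around the start (250 before and 50 after) of the members found in the promoter table of RefSeq (GRCh38.p14), 31 of the 44. CACGTG, which reads the same on both strands, was in 8 of them (25.8%), against 7.43% of 27305 promoters of the same length. The longer TCACGTG, searched on both strands and always overlapping a CACGTG, was in 7 (22.6%, against 3.82% of all). These are the 8 promoters, shown because their genes lie in every role but the transcription factors and the lipid genes, with the CACGTG boxes before the start in capitals, 5′ to 3′ on the strand of the gene. LAMP1 encodes an abundant lysosomal membrane glycoprotein and had 6 boxes, 5 of them shown. MCOLN1 encodes a calcium channel of the lysosomal membrane, CTSA protective protein, CTSD the aspartic protease cathepsin D, NEU1 the sialidase, GAA acid alpha-glucosidase, ATP6V0D1 a subunit of the pump's membrane sector and CD63 a tetraspanin.
LAMP1, chr13:113297020-113297129, plus strand: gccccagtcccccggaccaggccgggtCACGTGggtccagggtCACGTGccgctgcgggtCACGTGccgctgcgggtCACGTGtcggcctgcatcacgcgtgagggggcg
LAMP1, chr13:113297184-113297238, plus strand: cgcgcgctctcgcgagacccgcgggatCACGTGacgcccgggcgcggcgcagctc
MCOLN1, chr19:7522556-7522623, plus strand: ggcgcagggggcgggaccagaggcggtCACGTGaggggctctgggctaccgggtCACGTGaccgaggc
CTSA, chr20:45891266-45891334, plus strand: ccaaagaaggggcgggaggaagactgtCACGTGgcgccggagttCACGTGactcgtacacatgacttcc
CTSD, chr11:1763942-1764001, minus strand: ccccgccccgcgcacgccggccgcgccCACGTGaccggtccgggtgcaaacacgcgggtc
NEU1, chr6:31862915-31862974, minus strand: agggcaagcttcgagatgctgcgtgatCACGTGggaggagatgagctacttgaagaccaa
ATP6V0D1, chr16:67481184-67481243, minus strand: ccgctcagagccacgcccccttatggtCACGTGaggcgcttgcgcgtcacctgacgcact
GAA, chr17:80101478-80101580, plus strand: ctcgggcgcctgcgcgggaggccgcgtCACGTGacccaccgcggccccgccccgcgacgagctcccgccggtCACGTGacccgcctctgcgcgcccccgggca
CD63, chr12:55729157-55729216, minus strand: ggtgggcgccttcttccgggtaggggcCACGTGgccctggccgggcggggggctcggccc

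Levels are given as CPM, the reads of a gene scaled to the same total in every library, where the deposited values were scaled by the whole span from gene start to gene end. Libraries held 18.2 to 51.5 M reads. Of the 44 members, 42 were at 1 CPM or more in every library. Legumain (LGMN) and the sulfamidase SGSH were the exceptions. LGMN was tested in the second experiment only and SGSH in neither, which left 42 members tested in the first and 43 in the second. PHF8 RNA followed the labels, with means of 50.6 CPM in wt, 2020 in PHF8, 5381 in F279S, 1109 in ERDD, 1906 in ERPHF8 and 2150 in ERAA. Of 14 monocyte markers, 12 were at 1 CPM or more in every library, as were 5 of 8 granulocyte, 3 of 5 B cell, 2 of 8 T and NK cell and 1 of 5 fibroblast markers. Summed levels were 9.10 to 26.6 CPM for the B cell, 16.3 to 30.7 for the T and NK cell and 3.09 to 37.6 for the fibroblast markers. Below 1 CPM in every library were 5 of 5 erythroid and 3 of 4 epithelial markers. CD68 is both a monocyte marker and a member. Cell numbers were not measured, so a lower share of cells that make a transcript and less of it per cell cannot be told apart.

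Because CPM grows with gene length, genes were ranked against each other by CPM per kilobase of exon, with exonic lengths from GENCODE v29. The deposited spans equal those of that release for 38 of the 44 members and differ for PPT1, CTSD, GLA, TPP1, ASAH1 and SCARB2, whose values per exonic kb are less sure. PPT1, which takes fatty acids off proteins (chromosome 1, 40072705 to 40097703 on hg38, as all positions of genes here), was the highest of the 44 in all 6 groups, with 467 ± 22.8 CPM per exonic kb in wt (SD, n = 4), 385 ± 22.3 in PHF8 and 445 ± 2.15 in ERDD (SD, n = 2). In wt it was followed by progranulin (GRN) at 205 ± 45.7 and prosaposin (PSAP), the precursor of the sphingolipid activators, at 174 ± 16.4. GRN ranked second in wt and ninth, at 125 ± 3.23, in ERDD, where PSAP stood at 211 ± 0.925. The pump subunit ATP6V0C (149 ± 18.8 in wt), CTSD (118 ± 10.7), CTSZ (111 ± 4.39) and CD68 (108 ± 9.57) came next. Neighbours in this order of wt levels lay within their SDs of each other, except PPT1 and GRN, and ATP6V0C and CTSD. At the low end were LGMN (0.175 ± 0.0516) and SGSH (0.113 ± 0.0313), then MCOLN1 at 3.52 ± 0.509. The spans of 13 members overlap another gene, whose reads may count for both. Reads summed over all genes were 100.1% to 104.6% of the library totals, so some reads were counted for more than 1 gene. ATP6V0C and GLA lie wholly inside such a gene, and 35063 bases of HEXA, 38554 of IDS, 25624 of NPC1 and 6300 of CTSD are shared. CTSL and ATP6V0C also have pseudogene copies that reads could be split with, so the counts of these 7 genes are uncertain. MAN2B1 shares 1887 and 1915 bases with other genes, whose CPM reached 22.6% and 39.7% of its own. How many of its reads lie in those stretches is not known, so a part of its count is uncertain too.

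**Figure D1:**
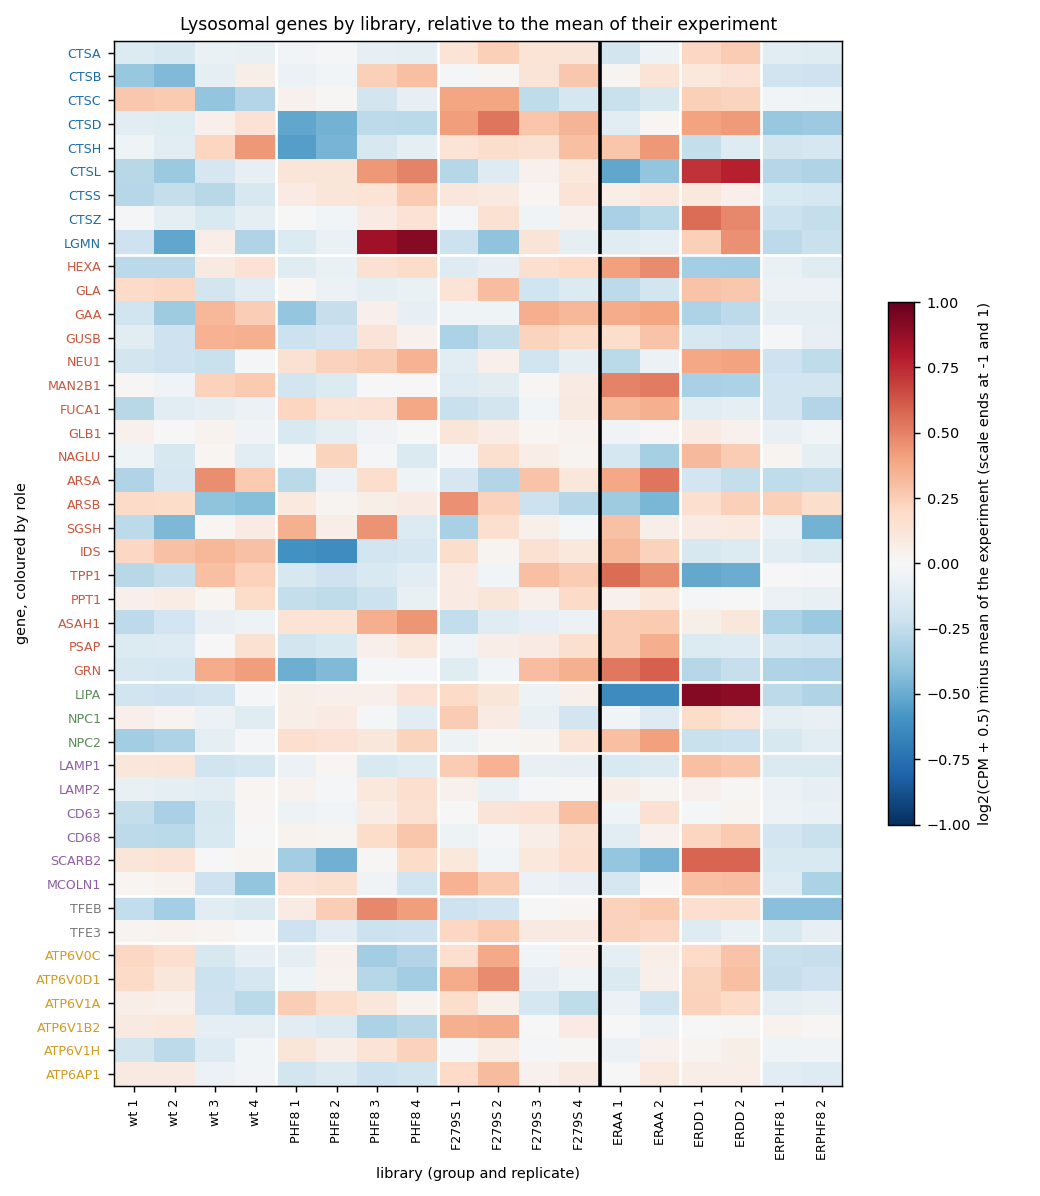
Each row is a gene and each column a library; the colour is log2(CPM + 0.5) minus the gene's mean over its experiment, from -1 (blue) to 1 (red), and a thick line parts the experiments. LIPA, CTSL and SCARB2 are red in both ERDD libraries, TPP1, GRN and MAN2B1 are red in both ERAA libraries, and within wt, PHF8 and F279S the libraries 1 and 2 often differ in colour from 3 and 4.

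Between ERDD and ERAA, most cathepsins, membrane proteins and pump subunits that changed were higher in ERDD, while most glycosidases and other hydrolases were lower. Of 43 members tested, 19 were higher and 14 lower (limma on log2(CPM + 0.5), adjusted p below 0.05). That is beside 68.1% of all 13831 genes called, 34.8% higher and 33.3% lower, so the number of members called is near the background. A change of 2-fold or more was called for 4 members (LIPA as deposited, CTSL, SCARB2 and TPP1), beside 6.11% of all genes. LIPA was not called once the reads of the genes inside its span were taken off. The median log2 change of the members was 0.04 and that of all genes -0.00086. By role, higher and lower were 6 and 1 of 9 for the cathepsins and legumain, 4 and 11 of 17 for the hydrolases, 2 and 1 of 3 for the lipid genes, 4 and 0 of 6 for the membrane proteins, 0 and 1 of 2 for the transcription factors and 3 and 0 of 6 for the pump. The medians by role were 0.42, -0.43, 0.24, 0.33, -0.20 and 0.15. ERAA held 2150 CPM of PHF8 RNA and ERDD 1109, and the 14 monocyte markers, none at 0, summed to 2070 to 2124 CPM in ERAA and 1892 to 1921 in ERDD. The 8 granulocyte markers, of which 5 were at 1 CPM or more in every library, summed to 4872 to 5445 and 3264 to 3360. Single markers of each list went both ways. Means in ERAA and ERDD were 371 and 194 CPM for CD4 and 194 and 293 for CSF1R, both monocyte markers. Of the granulocyte markers, CTSG had 1810 and 832, and PRTN3 545 and 724. The part of these differences in the results was not tested.

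Cathepsin L (CTSL, chromosome 9, 87725519 to 87731393), a cysteine protease that also processes other cathepsins, stood at 59.1 and 64.6 CPM in the ERAA libraries, 69.8 and 68.9 in ERPHF8 and 141 and 146 in ERDD. Both ERDD libraries lay far above the other 4, and the log2 change against ERAA was 1.21 ± 0.05 (SE, adjusted p = 8.5e-07), a 2.32-fold difference of the means. Cathepsin Z (CTSZ), a carboxypeptidase, went from 196 ± 5.31 in ERAA to 346 ± 13.4 CPM in ERDD (SD, n = 2; log2 change 0.82 ± 0.04). CTSD was higher by 0.45 ± 0.05, CTSC, which activates granule proteases, by 0.42 ± 0.04, and CTSA by 0.35 ± 0.05. LGMN, an asparagine-specific protease, was higher at only 1.80 and 2.18 against 1.30 and 1.34 CPM, and lost its call without ERDD 2 (0.34). CTSH, an aminopeptidase, was the one cathepsin that was lower, at 56.7 and 61.3 against 81.3 and 90.8 CPM (-0.54 ± 0.06, adjusted p = 0.00014). CTSB and CTSS did not pass, at 0.04 and -0.01, and their libraries overlapped. Summed over the 9 genes, the level was 2075 ± 2.41 CPM in ERDD, 1668 ± 79.0 in ERAA and 1483 ± 6.22 in ERPHF8 (SD, n = 2 each).

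Among the hydrolases, TPP1 (chromosome 11, 6612763 to 6619461), a tripeptidyl peptidase, showed the largest fall, from 455 and 426 CPM in ERAA to 217 and 219 in ERDD, with 307 and 307 in ERPHF8 between them. The log2 change was -1.01 ± 0.04 (adjusted p = 8.3e-07). MAN2B1 (chromosome 19, 12646511 to 12666742), the alpha-mannosidase, stood at 432 and 438 CPM in ERAA and 244 and 246 in ERDD (-0.83 ± 0.04, adjusted p = 9.8e-07). GRN (chromosome 17, 44345086 to 44353102), whose product is cut into granulins inside the lysosome, stood at 794 and 833 CPM in ERAA and 451 and 468 in ERDD (-0.82 ± 0.04, adjusted p = 2.2e-06). For each of these 3 genes the ERDD and ERAA libraries did not overlap, as for 83.7% of all genes tested. Lower as well were HEXA, a subunit of beta-hexosaminidase (-0.79 ± 0.04), ARSA, which desulfates sulfatide (-0.68 ± 0.06), GAA (-0.67 ± 0.04), PSAP (-0.44 ± 0.05), the fucosidase FUCA1 (-0.44 ± 0.07), the iduronate sulfatase IDS (-0.43 ± 0.05), the glucuronidase GUSB (-0.40 ± 0.05) and acid ceramidase ASAH1 (-0.17 ± 0.04). ASAH1 lost its call without ERDD 1 (-0.14).

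Against this direction, 4 hydrolases were higher in ERDD. ARSB, a sulfatase for dermatan sulfate, stood at 57.6 and 53.6 CPM in ERAA and 83.3 and 87.2 in ERDD (0.61 ± 0.05). NEU1 was at 66.2 and 76.6 CPM in ERAA and 105 and 106 in ERDD (0.56 ± 0.07), NAGLU, which acts on heparan sulfate, was higher by 0.55 ± 0.07, and the alpha-galactosidase GLA by 0.50 ± 0.05. In all 4 genes both ERDD libraries lay above both ERAA libraries, in a comparison where the libraries did not overlap for 83.7% of all genes. GLB1, the beta-galactosidase, and PPT1 did not pass, at 0.07 ± 0.04 and -0.08 ± 0.05. Summed, the 18 genes stood at 4988 ± 34.2 CPM in ERDD, 4920 ± 42.3 in ERPHF8 and 6321 ± 169 in ERAA (SD, n = 2 each).

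LIPA (chromosome 10, 89213569 to 89414557), the acid lipase that frees cholesterol and fatty acids from lipoprotein lipids, had the largest change as deposited. Its span gave 246 and 248 CPM in ERAA, 318 and 309 in ERPHF8 and 723 and 708 in ERDD, a log2 change of 1.53 ± 0.04 (adjusted p = 5.3e-08) between ERDD and ERAA. Inside this span lie IFIT1, IFIT1B, IFIT2 and IFIT3, which interferon induces, and whose reads may count for LIPA too. For IFIT1 the means were 226 CPM in ERDD, 43.3 in ERPHF8 and 11.5 in ERAA, for IFIT3 201, 50.1 and 17.0, and for IFIT2 99.3, 36.9 and 18.3. With the reads of these 4 genes taken off, the LIPA libraries read 191 and 187 CPM in ERDD, 202 and 198 in ERAA and 185 and 182 in ERPHF8. The difference between ERDD and ERAA was then -0.08 ± 0.04 (adjusted p = 0.084), of the opposite sign and not called. ERPHF8 against ERAA turned from 0.34 ± 0.04 to -0.13 ± 0.04 (adjusted p = 0.025), and ERDD against ERPHF8 went from 1.19 ± 0.04 to 0.04 ± 0.04 (0.39). Counts of members called, given here, hold LIPA as deposited. GLB1, the other member with a gene inside it (TMPPE), was not called in any comparison with or without the reads of that gene, in the fit without the replicate block.

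**Figure D2:**
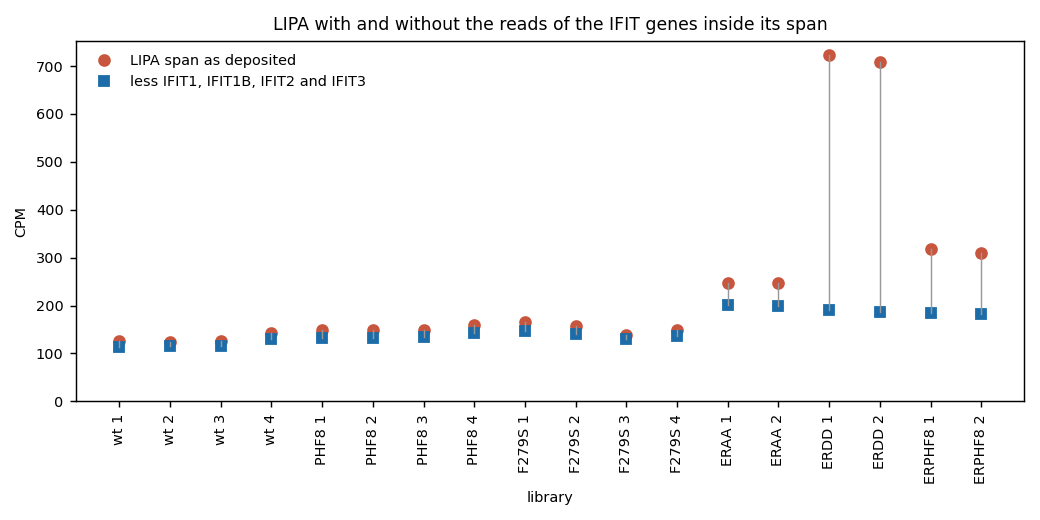
The vertical axis is CPM and each column is a library; circles show the LIPA span as deposited and squares the same span less the reads of IFIT1, IFIT1B, IFIT2 and IFIT3. The ERDD circles stand at 723 and 708 CPM and their squares at 191 and 187, close to those of ERAA and ERPHF8.

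The cholesterol transporters went opposite ways. NPC1, the membrane protein that exports cholesterol from the lysosome, was slightly higher in ERDD (0.24 ± 0.05, over a span shared in part with C18orf8), and NPC2, the soluble carrier that hands cholesterol to it, was lower, at 74.6 and 75.0 against 107 and 116 CPM (-0.57 ± 0.05, adjusted p = 2.4e-05). Of the membrane proteins, SCARB2 (chromosome 4, 76158737 to 76213893), the receptor that carries glucocerebrosidase to the lysosome, stood at 79.7 and 75.7 CPM in ERAA, 93.9 and 93.9 in ERPHF8 and 156 in each of the ERDD libraries. Its ERDD libraries lay above all 16 others, and the change against ERAA was 1.00 ± 0.04 (adjusted p = 7.5e-07). LAMP1 was higher by 0.43 ± 0.04, MCOLN1 by 0.39 ± 0.09 and the macrophage marker CD68 by 0.27 ± 0.05. LAMP2, the other large membrane glycoprotein and a receptor of chaperone-mediated autophagy, was at -0.02 and CD63 at -0.05, neither called.

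TFE3 (chromosome X, 49028726 to 49043486) was lower in ERDD, at 42.1 and 43.8 against 54.0 and 53.0 CPM (-0.31 ± 0.05, adjusted p = 0.00072), and TFEB did not pass (-0.08 ± 0.05). In the pump, ATP6V1A (chromosome 3, 113747019 to 113812056), the catalytic subunit, stood at 109 and 99.0 CPM in ERAA and 134 and 130.1 in ERDD (0.34 ± 0.05, adjusted p = 0.00061). ATP6V0D1 was higher by 0.31 ± 0.07 and ATP6V0C, the proteolipid of the membrane ring, by 0.25 ± 0.06. ATP6V0C lost its call without ERDD 2 (0.17). ATP6V1B2 and ATP6V1H of the cytosolic sector and the accessory protein ATP6AP1 were at 0.04, 0.05 and 0.01, not called. Of the 33 members called between ERDD and ERAA, 30 kept their call with each of the 4 libraries left out in turn.

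**Figure D3:**
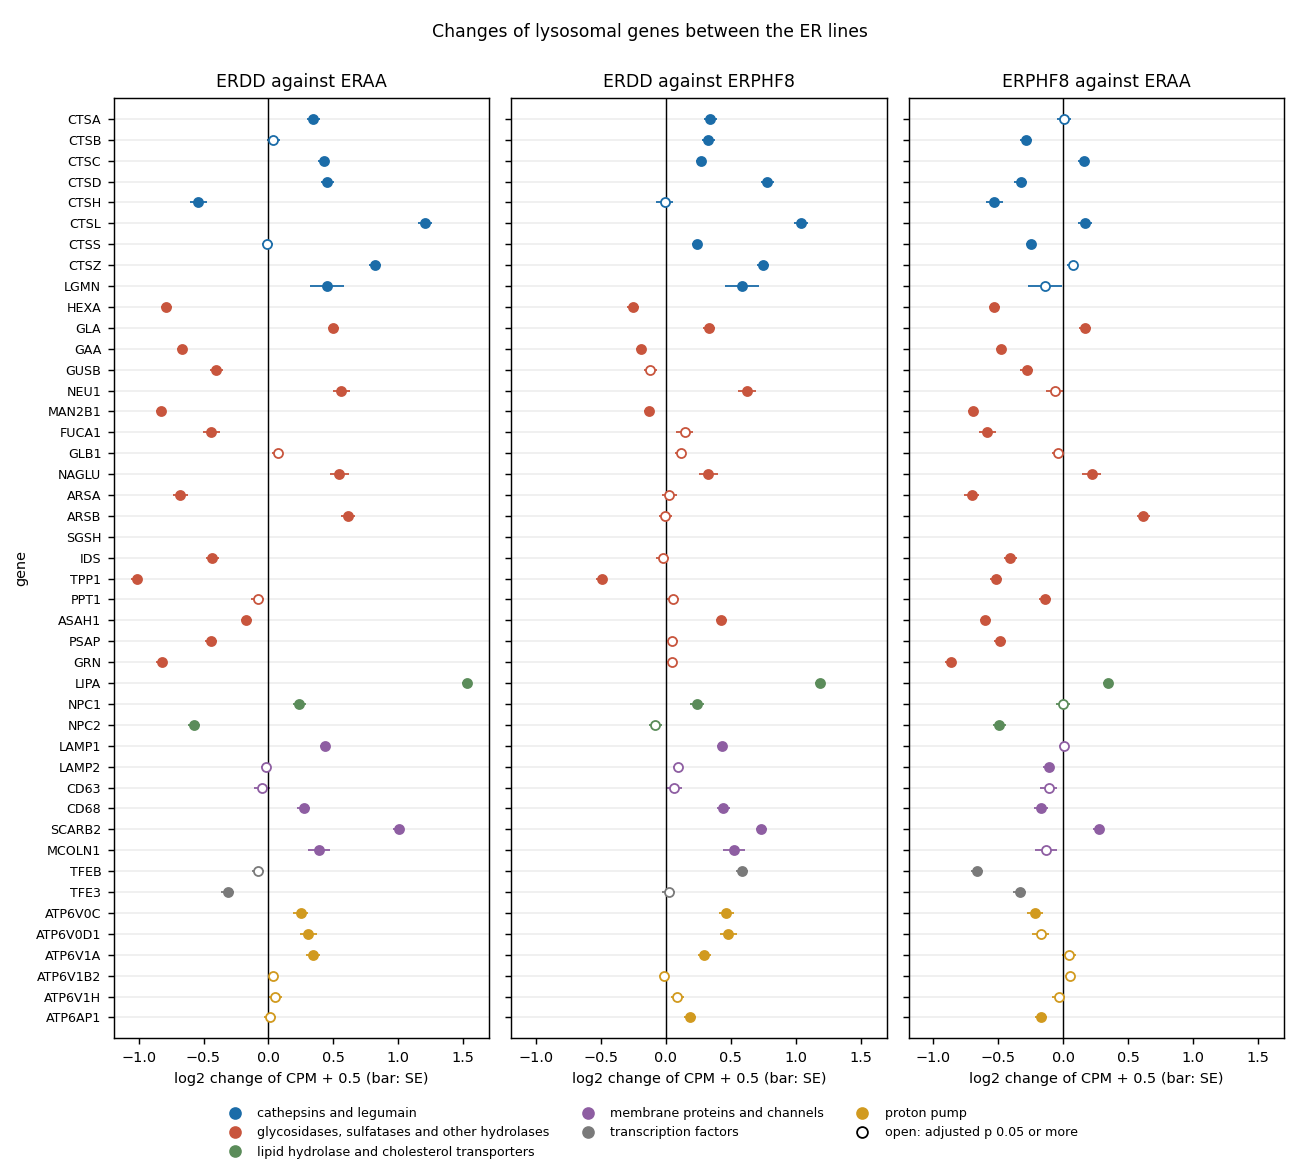
Points are log2 changes of CPM + 0.5 for 43 genes in the 3 comparisons of the ER lines, with the SE as a bar and the role as the colour; open points did not pass. Cathepsins lie mostly right of 0 where ERDD is compared, most hydrolases lie left of 0 in both comparisons with ERAA, and LIPA is drawn as deposited, at 1.53, 1.19 and 0.34.

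ERPHF8 against ERAA gave mostly lower levels: 7 of 43 members were higher and 23 lower, beside 53.8% of all genes called, 29.7% higher and 24.1% lower. The median was -0.17, against 0.04 over all genes. Hydrolases made up 12 of the 23, with 3 higher of 17. The monocyte markers summed to 1638 to 1642 CPM in ERPHF8, below both other ER lines. The granulocyte markers summed to 4076 to 4094 CPM there, below ERAA (4872 to 5445) and above ERDD (3264 to 3360). Their part in these results, and in those of ERDD against ERPHF8, was not tested. GRN was at 447 and 444 CPM in ERPHF8, beside 451 and 468 in ERDD (-0.87 ± 0.04 against ERAA, adjusted p = 9.4e-06). ARSA (chromosome 22, 50622754 to 50628173) stood at 60.3 and 66.6 CPM in ERAA and 38.4 and 38.9 in ERPHF8 (-0.71 ± 0.06, adjusted p = 5.9e-05). MAN2B1 was at 268 and 269 CPM (-0.70 ± 0.04). In the other direction ARSB (chromosome 5, 78777209 to 78986087) stood at 87.1 and 83.8 CPM (0.62 ± 0.05, adjusted p = 6.7e-05), beside 83.3 and 87.2 in ERDD, so that ERAA was the low line. SCARB2 was higher by 0.27 ± 0.04.

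TFEB (chromosome 6, 41683978 to 41736259) was lower in ERPHF8 than in either other ER line. It stood at 46.8 and 47.2 CPM in ERDD, 49.1 and 50.3 in ERAA and 31.1 in each ERPHF8 library, a log2 change of -0.67 ± 0.05 against ERAA (adjusted p = 3.1e-05). TFE3 was lower too (-0.34 ± 0.05). Of the cathepsins, CTSH (-0.53 ± 0.06, adjusted p = 0.00033), CTSD (-0.33 ± 0.05), CTSB (-0.29 ± 0.05) and CTSS (-0.25 ± 0.04) were lower and CTSC and CTSL higher, by 0.16 and 0.17. NPC2 was lower (-0.49 ± 0.05, adjusted p = 0.00014), and so were LAMP2, CD68, ATP6V0C and ATP6AP1, at -0.11 to -0.22. Of the 30 calls, 21 held with each library left out. The other 9 were CTSC, CTSL, GLA, NAGLU, PPT1, LAMP2, CD68, ATP6V0C and ATP6AP1. Each lost its call without ERPHF8 1 and without ERPHF8 2, NAGLU also without ERAA 2, and the highest adjusted p of each was between 0.081 and 0.24. ATP6AP1, for example, was at -0.17 ± 0.04 (adjusted p = 0.012) and at -0.18 and -0.16 without them. Scaled by median of ratios, CTSC, CTSL, GLA and PPT1 were not called.

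Set against ERPHF8, ERDD had higher levels of 23 of 43 members and lower levels of 4, beside 52.8% of all genes called, 24.8% higher and 28% lower. The median was 0.24, against -0.02 over all genes, and 2 members (LIPA as deposited and CTSL) were called at 2-fold or more, beside 2.44%. LIPA was not called with the IFIT reads taken off. Both this comparison and the former use the ERPHF8 libraries, and those of ERDD and ERAA are shared likewise, so the 3 are not independent of each other. Of the 9 cathepsins and legumain, 8 were higher and 0 lower. CTSL was higher by 1.04 ± 0.05 (adjusted p = 6.7e-06). CTSD (chromosome 11, 1752752 to 1763992) stood at 234 and 236 CPM in ERPHF8 and 401 and 407 in ERDD (0.78 ± 0.05, adjusted p = 2.0e-05). CTSZ was higher by 0.75 ± 0.04, CTSA, CTSB, CTSC and CTSS by 0.24 to 0.34, and CTSH was not called (-0.01 ± 0.06). LGMN, at 0.59 ± 0.13, lost its call without ERDD 2 (0.48).

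SCARB2 (0.73 ± 0.04, adjusted p = 1.3e-05), TFEB (0.59 ± 0.05, adjusted p = 6.1e-05), MCOLN1 (0.53 ± 0.09), CD68 (0.44 ± 0.05) and LAMP1 (0.43 ± 0.04) were also higher in ERDD than in ERPHF8. So were 4 of the 6 pump genes, with ATP6V0C (chromosome 16, 2513870 to 2520218) at 250.3 and 268 against 188 and 187 CPM (0.47 ± 0.06, adjusted p = 0.00053) and ATP6V0D1 at 0.48 ± 0.07. The 4 lower members were hydrolases, and the libraries of each did not overlap (84% of all genes): TPP1 (-0.50 ± 0.04, adjusted p = 0.00011), HEXA (-0.25 ± 0.04, adjusted p = 0.0021), GAA (-0.19 ± 0.04, adjusted p = 0.0045) and MAN2B1 (-0.13 ± 0.04). Of the 27 calls 21 held with each library left out. GAA lost its call without ERDD 1 (-0.17), and so did NPC1 (0.22 to 0.26 over the 4). NAGLU lost it without ERDD 1 and without ERPHF8 2 (0.26 to 0.39), and MAN2B1 and ATP6AP1 with each of the 4 libraries left out, at -0.14 to -0.12 and 0.17 to 0.19. MAN2B1 was not called either with median-of-ratios scaling.

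**Figure D4:**
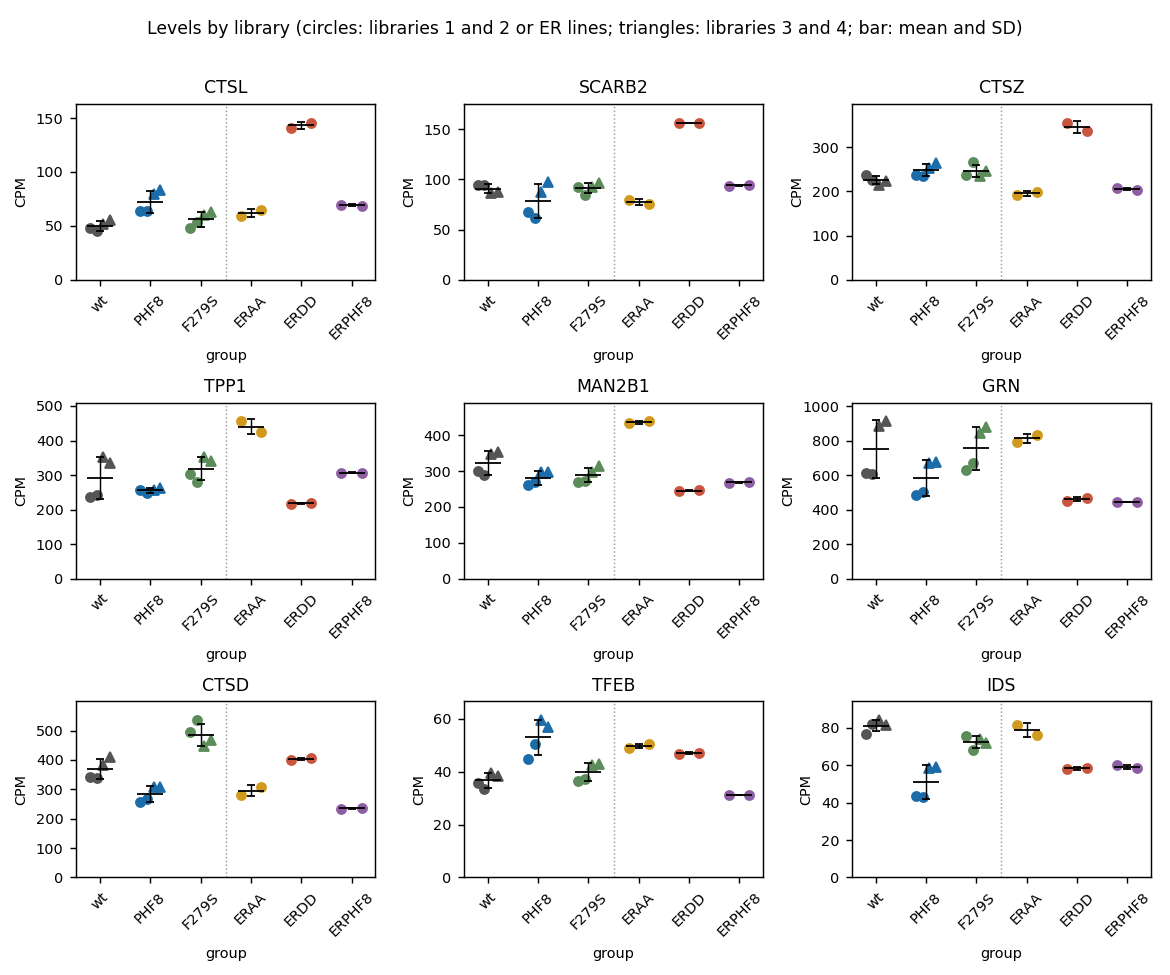
Each panel plots the CPM of a gene in all 18 libraries by group, with mean and SD as bars; circles are libraries 1 and 2 of the first experiment and all ER libraries, triangles are libraries 3 and 4. CTSL, SCARB2 and CTSZ are highest in ERDD, TPP1 and MAN2B1 in ERAA, and TFEB and IDS show the PHF8 line apart from wt and F279S.

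In the first experiment, members changed in both directions between PHF8 and wt. Of 42 members 10 were higher and 6 lower in PHF8, beside 21% of all 13683 genes called, 12.7% higher and 8.28% lower, and 0 reached 2-fold. The median was 0.01, as over all genes (0.01). The 14 monocyte markers summed to 1359 to 1731 CPM in PHF8 and 2069 to 2908 in wt, and the 8 granulocyte markers to 4792 to 5138 and 5192 to 5405. Both sums were lower in PHF8 with no overlap, but single markers of each list went both ways. Of the monocyte markers, LYZ had means of 855 CPM in wt and 252 in PHF8, and CSF1R 139 and 165. Of the granulocyte markers, AZU1 had 1637 and 1392, and PRTN3 1375 and 1431. The part of the markers in these results was not tested. Among the cathepsins, CTSL stood at 48.2, 45.2, 51.9 and 55.4 CPM in wt and 63.6, 63.6, 79.2 and 83.0 in PHF8 (0.52 ± 0.11, adjusted p = 0.0070). CTSS (chromosome 1, 150730196 to 150765957), which trims the invariant chain of class II MHC, was at 122, 127, 123 and 134 in wt and 158, 162, 164 and 179 in PHF8 (0.39 ± 0.06, adjusted p = 0.00047). The PHF8 libraries of both genes lay above every wt library. CTSD was lower, at 258, 266, 308 and 307 against 343, 339.6, 384 and 409 CPM (-0.37 ± 0.09, adjusted p = 0.0097). CTSH (chromosome 15, 78921058 to 78949574) was lower as well, at 43.0, 45.8, 56.5 and 59.5 against 61.4, 58.7, 73.6 and 85.7 CPM (-0.44 ± 0.13, adjusted p = 0.031), with overlapping libraries. It was not called without wt 3 (-0.41), wt 4 (-0.34), PHF8 1 (-0.36) or PHF8 2 (-0.39).

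IDS (chromosome X, 149476990 to 149521096), the iduronate sulfatase, showed the largest change of all members in this comparison. It stood at 76.8, 81.7, 84.0 and 81.6 CPM in wt, 75.4, 67.8, 73.9 and 71.8 in F279S and 43.5, 43.1, 58.3 and 59.1 in PHF8, a change of -0.68 ± 0.10 against wt (adjusted p = 0.00071). All 4 PHF8 libraries were below all others of the experiment. PPT1 was lower too (-0.28 ± 0.07). Acid ceramidase ASAH1 (chromosome 8, 18056425 to 18084985) was higher, at 105, 105, 123 and 129.8 CPM against 79.3, 83.5, 90.5 and 92.0 in wt (0.41 ± 0.08, adjusted p = 0.0042), as were NEU1 (0.40 ± 0.07) and FUCA1 (0.35 ± 0.10). FUCA1 lost its call without wt 1 and without PHF8 4 (0.30 to 0.38 over the 8).

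TFEB stood at 35.7, 33.3, 39.4 and 38.3 CPM in wt and 44.8, 50.4, 59.4 and 57.0 in PHF8 (0.52 ± 0.10, adjusted p = 0.0028), with no overlap, as for 26.2% of all genes. TFE3 moved the other way, 37.4, 40.2, 37.2 and 37.3 against 44.01, 44.4, 44.1 and 43.0 CPM (-0.20 ± 0.06, adjusted p = 0.027), and kept its call without wt 4 and without PHF8 2 but in none of the other 6 leave-outs (-0.23 to -0.19). NPC2 (chromosome 14, 74476192 to 74494177) was at 48.7, 50.1, 58.1 and 61.3 CPM in wt and 69.7, 68.7, 67.3 and 72.7 in PHF8 (0.36 ± 0.08, adjusted p = 0.0071). CD68 (chromosome 17, 7579467 to 7582113) was at 222, 221, 239.7 and 266 CPM in wt and 273, 271, 303 and 322 in PHF8 (0.30 ± 0.08, adjusted p = 0.019) and was not called without wt 1 (0.27), wt 2 (0.27), PHF8 3 (0.28) or PHF8 4 (0.25). LGMN, untested for its low level, was at 0.701, 0.464, 0.947 and 0.625 CPM in wt and 0.760, 0.822, 1.99 and 2.10 in PHF8, high in libraries 3 and 4 of PHF8 alone. Of the pump, ATP6V1H was higher, at 54.8, 52.6, 55.3 and 59.1 against 44.1, 41.8, 45.9 and 49.3 CPM (0.29 ± 0.06, adjusted p = 0.0066). ATP6AP1 was lower (-0.21 ± 0.07) and LIPA higher (0.23 ± 0.07). ATP6AP1 kept its call only without wt 3 and LIPA only without wt 4, and both were lost with median-of-ratios scaling, LIPA also without the IFIT reads (0.19, adjusted p = 0.052).

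How many members passed depended on how libraries 1 and 2 were set beside libraries 3 and 4, which stood apart in every line of this experiment. GRN, for instance, was at 612, 604, 885 and 912 CPM in wt and 487, 504, 673 and 676 in PHF8. Its change of -0.35 ± 0.18 had an adjusted p of 0.19, and of 0.00012 in a fit blocked by replicate number. That block gave 15 members higher and 11 lower, beside 41.4% of all genes. It added CTSB, HEXA, LAMP2, CD63 and ATP6V1A as higher, and GUSB, MAN2B1, GRN, ATP6V0C and ATP6V1B2 as lower, to the 16 called without it. With each library pair averaged and the pair as a factor, 7 were higher and 3 lower, beside 13% of all genes. These were CTSB, CTSL, CTSS, NEU1, ASAH1, CD68 and TFEB as higher and CTSH, IDS and GRN as lower, 8 of them among the 16. Libraries 1 and 2 alone gave 15 higher and 16 lower (51.4% of all genes called), and libraries 3 and 4 alone 14 and 12 (42.1%). The pairs gave the same sign for 32 of 42 members, and all 16 called members were among them. CTSC was called in both with opposite signs, -0.24 in libraries 1 and 2 and 0.21 in 3 and 4. SCARB2 was at -0.54 and 0.09, ARSB at -0.12 and 0.48, and TPP1 at 0.07 and -0.40.

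**Figure D5:**
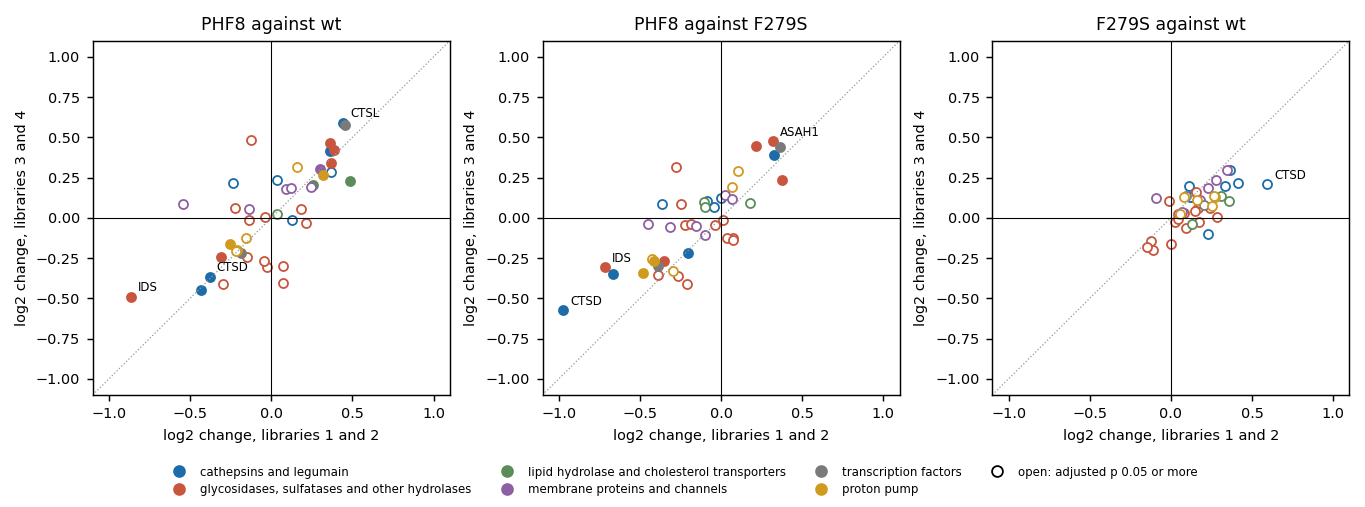
Each point is a gene, with its log2 change in libraries 1 and 2 on the horizontal axis and in libraries 3 and 4 on the vertical axis; the colour is the role, filled points were called with all libraries, and the dotted line marks equal changes. Filled points lie in the quadrants of equal sign, and in F279S against wt most points lie right of 0 and nearer to 0 on the vertical axis.

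PHF8 against F279S set the active form against the inactive one and used the same PHF8 libraries, so its values stand beside those against wt and add no independent evidence. PHF8 RNA had means of 2020 CPM in PHF8 and 5381 in F279S, so the form of PHF8 and its RNA level cannot be told apart here. Of 42 members, 5 were higher and 8 lower in PHF8 (20.1% of all genes called, 12.2% higher and 7.92% lower). Monocyte markers summed to 1359 to 1731 CPM in PHF8 and 2010 to 2384 in F279S, and granulocyte markers to 4792 to 5138 and 3767 to 4465, so that the sums differed in opposite directions. Their part in these results was not tested. With median-of-ratios scaling 3 were higher and 8 lower, since CTSL and FUCA1 were lost. CTSD showed the largest change, from 495, 535, 449 and 468 CPM in F279S to 258, 266, 308 and 307 in PHF8 (-0.77 ± 0.09, adjusted p = 9.5e-05). The wt libraries, at 343, 339.6, 384 and 409, lay between these groups. IDS (-0.51 ± 0.10, adjusted p = 0.0045), TFE3 (-0.34 ± 0.06, adjusted p = 0.0015) and CTSH (-0.51 ± 0.13, adjusted p = 0.017) were lower in PHF8, as were CTSA, PPT1 and ATP6V1B2, at -0.21, -0.31 and -0.41. ATP6AP1 (chromosome X, 154428632 to 154436516) was at 143, 156, 129 and 133 in F279S and 111, 114, 108 and 109 CPM in PHF8 (-0.34 ± 0.07, adjusted p = 0.0035). CTSH was not called without PHF8 1 (-0.43) or PHF8 2 (-0.46).

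Higher in PHF8 than in F279S were TFEB (0.40 ± 0.10, adjusted p = 0.013), ASAH1 (0.40 ± 0.08, adjusted p = 0.0058), CTSL (0.36 ± 0.11, adjusted p = 0.044), NEU1 (0.33 ± 0.07) and FUCA1 (0.31 ± 0.10). TFEB stood at 36.6, 37.2, 42.4 and 43.0 CPM in F279S. CTSL was lost without PHF8 3 (0.31), PHF8 4 (0.29), F279S 1 (0.29) or F279S 2 (0.34), and FUCA1 in every leave-out except that of F279S 4 (0.25 to 0.36). NPC2 (0.13 ± 0.08, adjusted p = 0.28) and SCARB2 (-0.25 ± 0.12, adjusted p = 0.20) did not pass. SCARB2 stood at 67.6, 61.7, 87.1 and 97.7 CPM in PHF8, low in libraries 1 and 2 only, and at 92.7, 84.6, 92.7 and 96.6 in F279S. Without PHF8 4 it was called, at -0.36. The replicate block gave 6 higher and 15 lower (41.1% of all genes), adding ATP6V1A as higher and GAA, GLB1, TPP1, GRN, LAMP1, ATP6V0C and ATP6V0D1 as lower. Libraries 1 and 2 alone gave 6 and 20 (53.8%) and libraries 3 and 4 alone 6 and 12 (35.2%). The libraries of 15 of the 42 members tested did not overlap, beside 26.6% of all genes tested, and all 13 called members were among the 15. Averaged library pairs gave 3 and 8 (11.7%), with 8 of the 13 kept: CTSL, TFEB and ASAH1 as higher, and CTSD, CTSH, IDS, ATP6V1B2 and ATP6AP1 as lower.

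In F279S against wt, 0 of 42 members passed (limma; 0 by voom as well), beside 0.0146% of all genes. At an unadjusted p below 0.05 there were 10 members, all higher in F279S, beside 6.37% of all genes, and 37 of 42 changes were above 0 (median 0.13, against -0.01 over all genes). CTSS had the smallest p of the cathepsins, at 162, 159, 151 and 164 CPM in F279S against 122, 127, 123 and 134 in wt (0.33 ± 0.06, adjusted p = 0.11), and its groups did not overlap. CTSD, at 0.40 ± 0.09 (adjusted p = 0.23), did not overlap either. In all, the groups did not overlap for 6 of the 42 members tested, beside 4.18% of all genes. CD63 (chromosome 12, 55725323 to 55729707) was at 242, 265, 268 and 298 against 205, 193, 217 and 244 CPM (0.32 ± 0.09, adjusted p = 0.37). LIPA (0.23 ± 0.07, adjusted p = 0.38), ATP6V1H (0.16 ± 0.06, adjusted p = 0.69), TFE3 (0.14 ± 0.06, adjusted p = 0.71) and MAN2B1 (-0.16 ± 0.08, adjusted p = 0.85) had the smallest p of their roles.

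With the replicate block, 7 members passed as higher in F279S than in wt and 0 as lower, beside 2.18% of all genes. They were CTSA, CTSB, CTSD, CTSS, CD63, CD68 and ATP6V1B2, with adjusted p of 0.018, 0.014, 0.034, 0.010, 0.010, 0.018 and 0.040. Libraries 1 and 2 alone gave 18 higher and 0 lower (14.2% of all genes), and libraries 3 and 4 alone 0 and 0 (0.0877%). With the library pairs averaged 0 passed (0.00731%). The median over the members was 0.16 in libraries 1 and 2 and 0.10 in 3 and 4, with the same sign in 33 of 42. The 14 monocyte markers summed to 2010 to 2384 CPM in F279S, which overlaps the 2069 to 2908 of wt, and the 8 granulocyte markers to 3767 to 4465 in F279S and 5192 to 5405 in wt, with no overlap. Their part in these values was not tested.

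The members whose promoters hold a CACGTG box, printed above, were set beside the calls. Between ERDD and ERAA the box was in 6 of 16 matched members that were higher (CTSA, CTSD, NEU1, LAMP1, MCOLN1 and ATP6V0D1), in 1 of 10 that were lower (GAA) and in 1 of 5 not called (CD63). The 16 hold LIPA as deposited, without the box. Of all genes tested, 34.8% were called higher and 33.3% lower. How often genes with the box were called was not counted beyond the members, so these numbers have no background to be read against. Between ERDD and ERPHF8 the numbers were 6 of 17, 1 of 3 (GAA) and 1 of 11, and between ERPHF8 and ERAA 0 of 6 higher, 2 of 16 lower and 6 of 9 not called. For PHF8 against wt they were 1 of 7 (NEU1), 1 of 6 (CTSD) and 6 of 18, and for PHF8 against F279S 1 of 4 (NEU1), 2 of 7 and 5 of 20. CTSL, SCARB2 and CTSZ had the largest rises in ERDD against ERAA, apart from LIPA as deposited. They are among the 23 matched members without the box in this window. Between ERDD and ERAA the RNA of the factors that bind the box was at -0.08 for TFEB, not called, and -0.31 for TFE3, lower. Whether the box or these factors had a part in any of the changes was not tested.

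Further genes of the same pathways, from lists chosen with earlier results of these data known, also split in direction. Their counts stand beside the shares of all genes called, which were 68.1% for ERDD against ERAA (34.8% higher, 33.3% lower), 53.8% for ERPHF8 against ERAA (29.7% and 24.1%), 52.8% for ERDD against ERPHF8 (24.8% and 28%), 21% for PHF8 against wt (12.7% and 8.28%) and 20.1% for PHF8 against F279S (12.2% and 7.92%). Several lists lay near these shares, and none was tested as a list. Among those named here, the spans of SIAE, ATP6V1G2, CLN6, IFI30, CPVL, ATP6V1D and ATG9A overlap another gene over a long stretch or wholly, so their levels are uncertain too. Between ERDD and ERAA, 14 of 39 other hydrolases were higher and 18 lower (median -0.06), among them the sialic acid esterase SIAE at 49.8 against 93.5 CPM (-0.90 ± 0.04, adjusted p = 1.3e-06). Of 21 other pump genes 9 were higher and 9 lower, with ATP6V1G2 (-0.93 ± 0.07) and ATP6V0A1 (-0.78 ± 0.07) among the lower. Other lysosomal membrane proteins gave 15 and 16 of 42, with the exonuclease PLD3 at 416 against 802 CPM (-0.95 ± 0.05, adjusted p = 2.7e-06) and LAMP3, of dendritic cells, at 3.18 against 0.404 CPM (2.03 ± 0.13, adjusted p = 5.2e-06). Sorting genes gave 13 and 6 of 22, with SORT1, the sortilin receptor, at -0.96 ± 0.07 and CLN6 at 0.52 ± 0.04. Regulators of mTORC1 and TFEB gave 10 and 4 of 24, with the mTORC1 subunit MLST8 at 47.5 against 112 CPM (-1.23 ± 0.07, adjusted p = 2.7e-06) and its activator RHEB at 0.53 ± 0.04. Autophagy genes gave 9 and 18 of 42, with the receptor CALCOCO2 (-0.76 ± 0.04) and the kinase ULK1 (-0.69 ± 0.05) lower.

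In ERPHF8 against ERAA, other hydrolases had 3 higher and 22 lower of 39 (median -0.26), with SIAE at -0.66 ± 0.04 and the carboxypeptidase SCPEP1 at -0.67 ± 0.05. The pump had 4 and 8 of 21, membrane proteins 10 and 14 of 42 (PLD3 -0.96 ± 0.05), sorting genes 7 and 6 of 22, mTORC1 and TFEB regulators 6 and 4 of 24 and autophagy genes 4 and 17 of 42. In ERDD against ERPHF8, other hydrolases had 16 higher and 7 lower, with the thiol reductase IFI30, itself induced by interferon, at 41.4 against 20.5 CPM (1.00 ± 0.06, adjusted p = 1.3e-05). Pump genes had 9 and 7, membrane proteins 12 and 9 (the lipid transporter ABCA2 -0.79 ± 0.06), sorting genes 8 and 3, mTORC1 and TFEB regulators 6 and 5 and autophagy genes 10 and 12.

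In PHF8 against wt, other hydrolases had 11 of 39 higher and 4 lower (median 0.13). NAAA, which cleaves fatty acid ethanolamides, was at 61.3 against 36.1 CPM (0.76 ± 0.05, adjusted p = 3.5e-06) and the carboxypeptidase CPVL at 65.6 against 36.5 CPM (0.83 ± 0.08, adjusted p = 3.0e-05). Of 20 other pump genes 1 was higher and 2 lower, with ATP6V1D at 0.46 ± 0.05 and ATP6V1E2 at -0.48 ± 0.08. Membrane proteins had 3 and 6 of 41, with LAMP5 at 11.4 against 20.5 CPM (-0.82 ± 0.07, adjusted p = 1.1e-05). Sorting genes had 4 and 2 of 22. GNPTAB, the enzyme that starts the mannose 6-phosphate tag, was at 27.8 against 17.8 CPM (0.63 ± 0.09, adjusted p = 0.00028), and M6PR, a receptor for that tag, at 92.8 against 124 CPM (-0.41 ± 0.09, adjusted p = 0.0097). Of 23 mTORC1 and TFEB regulators 4 were higher and 1 lower, among them MITF (0.67 ± 0.13) and TFEC (-0.33 ± 0.07), both of the family of TFEB. Autophagy genes had 3 and 5 of 42, with GABARAPL1 at 0.83 ± 0.13 and ATG9A at -0.32 ± 0.05. In PHF8 against F279S, higher and lower were 7 and 6 of 39 for other hydrolases, 1 and 2 of 20 for the pump, 3 and 8 of 41 for membrane proteins, 1 and 1 of 22 for sorting, 1 and 2 of 23 for the regulators and 3 and 5 of 42 for autophagy. In F279S against wt 0 genes of any of these 6 lists passed, while an unadjusted p below 0.05 was found for 7 of 39 other hydrolases, 4 of 20 pump, 2 of 41 membrane, 1 of 22 sorting, 0 of 23 regulator and 2 of 42 autophagy genes, beside 6.37% of all genes.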

How the data were processed

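The authors deposited RPKM values per gene, in which the length is the whole gene span. The submitters' processing notes name STAR 2.7.0c, SAMtools 1.9, DESeq2 and hg38; how reads were counted, and on which annotation, is not given in the sources used here. CPM was computed as RPKM times the span in kilobases. All values correspond to whole reads within 0.001 reads, so the total per library is known.

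Genes at 1 CPM or more in at least 4 libraries (first experiment) or 2 (day 3) were tested on log2(CPM + 0.5) with limma 3.58.1 in R 4.3.3, fitting all groups of an experiment together. Benjamini-Hochberg adjusted p-values, over all genes tested, were called below 0.05. Fold changes on this scale understate those of low genes. The planned count test on deposited counts was replaced because the values are RPKM, with voom on recovered reads as an alternative. The scripts were tested on simulated data.

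The labels do not say that replicates were separate cultures, so p-values measure only the spread between libraries, which may be technical. In wt the median chi-square per gene between read counts was 0.758 for libraries 1 and 2, 2.82 for 3 and 4 and 18.5 for 1 and 3. In PHF8 these values were 0.763, 1.98 and 5.27, and in F279S 1.62, 2.795 and 17.1. The 4 libraries of a line may therefore not be 4 independent units, and calls from a single library pair rest on the smaller spread. On day 3 the value between libraries 1 and 2 was 0.655 in ERDD, 0.903 in ERPHF8 and 3.25 in ERAA. The libraries of ERDD and of ERPHF8 may not be independent units either, and all day 3 calls rest on these spreads fitted together. Same-numbered libraries deviated together in the first experiment (12 correlations, 0.484 to 0.908). Different numbers of the same library pair did so too. For wt 2 the correlation was 0.55 with PHF8 1 and 0.498 with PHF8 2, and for wt 3 it was 0.677 with PHF8 3 and 0.235 with PHF8 4. Pairing by number is therefore not settled apart from the split of libraries 1 and 2 from 3 and 4. On day 3 same-numbered libraries did not deviate together (-0.336 to 0.104).

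Members and gene lists were chosen with earlier results of these data known. Library values and the full test are given for up to 3 called members higher and 3 lower by size, and the member with the smallest p in each role; from other lists, up to 2 called genes by smallest p, of which 1 is not reported here. Every other member given with values in a comparison was chosen after its values were seen. Alternatives were another pseudocount or scaling, no filter, the replicate block, library pairs, reads of inner genes removed and single libraries left out. Promoters came from RefSeq (GRCh38.p14); exonic lengths, from GENCODE v29, served only to rank levels.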

Additional observations from a re-analysis of the deposited data

Results flagged for a closer look

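In 4 of 132 groups of 4 libraries (1 for each member and line of the first experiment) a library stood apart from the other 3 by Dixon's test, which chance does in about 1 group in 20. CTSA stood at 138 CPM in F279S 2, beside 128 in the other F279S libraries. LIPA stood at 142 CPM in wt 4 (125 to 126 in the others) and at 159 in PHF8 4 (149 to 150, rounded, in the others). TFE3 stood at 40.2 CPM in PHF8 2, beside 37.2 to 37.4.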

How the results depend on the processing

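The number of members called in PHF8 against wt, 16, was 26 with the replicate block, 27 with the library pair as a factor, 31 in libraries 1 and 2 alone, 26 in libraries 3 and 4 alone and 10 with each pair averaged (chosen after seeing the data). The 0 of F279S against wt became 7 with the replicate block, 7 with the pair as a factor and 18 in libraries 1 and 2 alone. The 13 of PHF8 against F279S became 21 with the replicate block, 21 with the pair as a factor and 26 in libraries 1 and 2 alone. On day 3, where the numbers do not pair the libraries, the replicate block gave 33 for ERDD against ERAA, 29 for ERPHF8 against ERAA (29 also with the numbers crossed, chosen after seeing the data) and 27 for ERDD against ERPHF8. Leaving out each library gave 31 to 35 calls for ERDD against ERAA, 22 to 25 for ERDD against ERPHF8, 21 to 35 for ERPHF8 against ERAA, 11 to 16 for PHF8 against wt, 11 to 13 for PHF8 against F279S and 0 for F279S against wt. LIPA was reversed when the IFIT reads were taken off, to -0.084 in ERDD against ERAA and -0.13 in ERPHF8 against ERAA. Among the named members under each setting, 763 values kept direction and side of the threshold, 24 lost the call, 12 gained it and 2 were the LIPA reversals. The cause of the other changes was not tested. The low counts of LGMN and SGSH limit what can be seen of them.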
